A study of Homo sapiens with 15 samples.

Results

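The expression of 10 genes of nucleotide excision repair (ERCC1, ERCC2, ERCC3, ERCC4, ERCC5, ERCC6, XPA, XPC, DDB1 and DDB2) was examined in LNCaP cells, an androgen-sensitive human prostate cancer line that expresses the androgen receptor. The genes were chosen by their symbols, and each of the 10 had a row among the 17272 genes of the expression table. In the control group, 10 libraries were made from cells given 1 nM R1881, a synthetic androgen, with DMSO as the vehicle. In the treated group, 5 libraries were made from cells given 1 nM R1881 together with 2 µM enzalutamide, an antagonist of the androgen receptor. Cells of both groups were first kept for 2 days in medium with charcoal-stripped serum, which removes steroids, and were collected after 22 h of treatment. All libraries come from a single cell line, and no group without androgen was analysed here. Polyadenylated RNA was sequenced, and the values, called CPM, are read counts per gene rescaled by a rule that is not stated. Their sums per library were 1053406 to 1078567 with R1881 and 985580 to 1008992 with R1881 + enzalutamide, without overlap. Means are given with the SD of the libraries after the ± sign, and changes as log2 fold changes with their standard error (SE). The methods call the libraries biological replicates but give the numbers per treatment the other way round, so the groups here follow the labels, and the labels do not say whether they come from separate cultures.

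Nucleotide excision repair removes bulky, helix-distorting lesions such as those made by ultraviolet light. Damage is found either genome-wide by XPC and by the DDB1-DDB2 complex, or at stalled RNA polymerase by ERCC6 (also called CSB). Both routes then share the TFIIH helicases ERCC3 (XPB) and ERCC2 (XPD), the damage verifier XPA, and the endonucleases ERCC5 (XPG) and ERCC1-ERCC4 (XPF), after which the gap is filled and sealed by replication enzymes. Inherited defects in these genes cause xeroderma pigmentosum, Cockayne syndrome and related disorders, and the study asked how enzalutamide affects DNA damage repair genes.

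The libraries held 15830745 to 25416052 reads counted on genes. As a check of the treatment, all 5 androgen-induced genes examined, among them KLK3 and FKBP5, were lower with enzalutamide. All 7 luminal prostate markers were detected in every library, with a summed level of 6720 to 7740 CPM with R1881 and 3580 to 3710 CPM with R1881 + enzalutamide. Leukocyte markers had no row, and of basal, fibroblast and endothelial markers only KRT14, COL1A1, LUM and VWF did. The summed level of the fibroblast markers was 4.61 to 8.55 CPM with R1881 and 8.89 to 13.9 CPM with R1881 + enzalutamide. KRT14 was at 0.706 to 1.44 and 0 to 0.279 CPM, and VWF at 2.08 to 2.84 and 2.84 to 3.35 CPM. The part of these markers in the results was not tested. By their labels, control libraries are numbered 51 to 55 and 71 to 75, and treated libraries 81 to 85. These series do not cross the treatments, so a difference between series and the treatment cannot be told apart, and changes are therefore also given against each R1881 series.

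With enzalutamide, 7 of the 10 genes rose, 1 fell and 2 did not pass the test (limma on log2(CPM + 0.5), adjusted p under 0.05 over the 17046 genes with a mean of at least 0.5 CPM). DDB2, XPC, ERCC1, ERCC6, XPA, ERCC4 and ERCC3 rose, and DDB1 fell. The changes were small, with log2 fold changes between -0.33 and 0.41. The treatment moved much of the transcriptome: 62.5% of all tested genes passed the same threshold, 29.8% upward and 32.7% downward. With equal library totals 6629 genes were higher and 4288 lower, in place of 5083 and 5577. The changes of the 10 genes all moved upward with equal totals, and 8 then rose. ERCC3 was at 0.20 in place of 0.10, ERCC2 at -0.004 in place of -0.10, and DDB1 at -0.24 in place of -0.33. With the values as deposited, the median log2 fold change was 0.17 for the 10 genes and -0.01 for all tested genes. Only XPC, DDB1 and DDB2 separated the treatments without overlap between libraries, as did 37.2% of all tested genes, so that 2 genes lay entirely above and 1 entirely below, beside 17.1% and 20.1% of all tested genes.

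**Figure D1:**
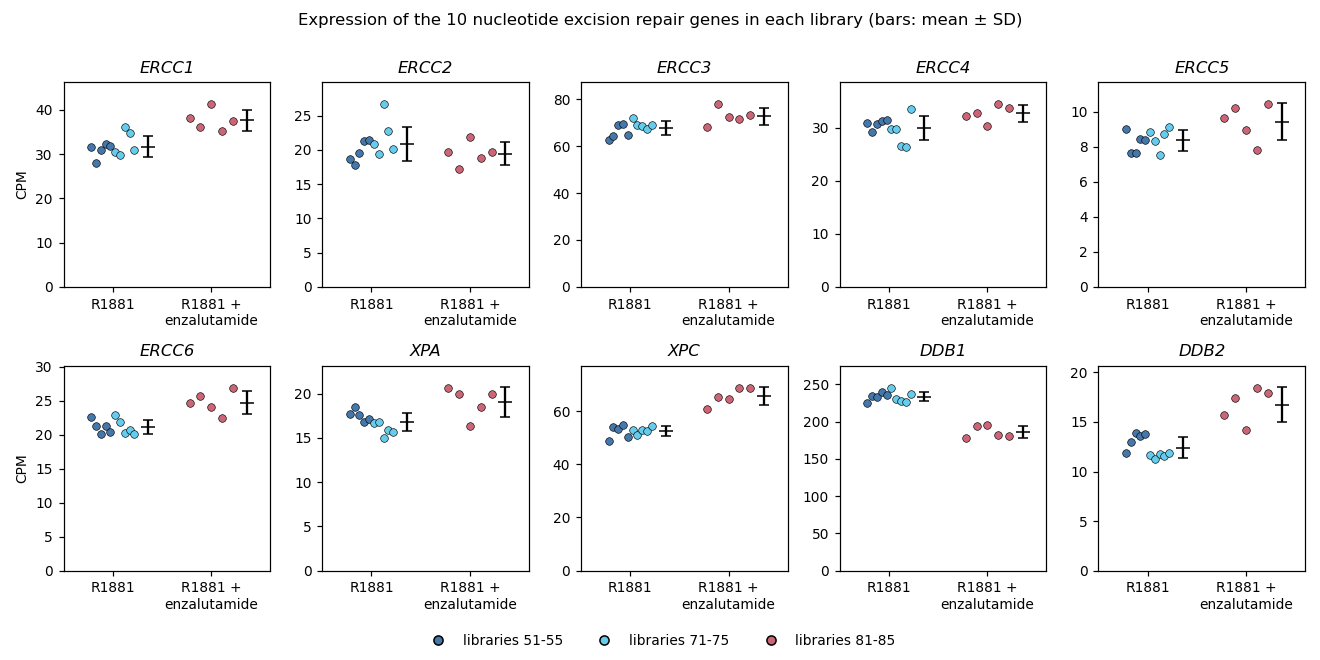
Expression (CPM, linear axes from 0) of each of the 10 genes in 10 R1881 libraries (dark and light blue for libraries 51 to 55 and 71 to 75) and 5 R1881 + enzalutamide libraries (red), ordered within a group by library number, with the mean and SD as a bar. XPC and DDB2 lie higher and DDB1 lower in every R1881 + enzalutamide library, while the groups overlap for the other 7 genes.

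Of the genes that separated the treatments, DDB2 and XPC rose. Their sequences before the transcription start, from the RefSeq table on GRCh38.p14, are shown because these genes had the largest upward changes. For DDB2 the 250 bases upstream of the first of its 2 listed starts are given, chr11:47214204-47214453 on the plus strand, with CCAAT boxes in capitals. For XPC the upstream run outside annotated exons is given, chr3:14178622-14178816 on the minus strand, with a GC box (GGGCGG) in capitals.
DDB2: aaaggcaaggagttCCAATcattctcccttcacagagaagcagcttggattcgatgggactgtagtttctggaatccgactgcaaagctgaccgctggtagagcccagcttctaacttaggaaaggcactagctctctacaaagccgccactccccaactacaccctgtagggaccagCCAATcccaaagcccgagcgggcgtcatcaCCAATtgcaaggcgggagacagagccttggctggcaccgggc
XPC: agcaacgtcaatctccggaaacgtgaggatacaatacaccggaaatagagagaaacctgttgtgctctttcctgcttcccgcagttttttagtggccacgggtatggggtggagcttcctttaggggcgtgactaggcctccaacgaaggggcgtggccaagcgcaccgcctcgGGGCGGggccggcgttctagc

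The windows of 250 bases before each RefSeq start were searched on both strands. The DDB2 window shown held 3 matches to CCAAT, a motif found in 32% of the 35116 promoter windows of this table. The window before the other DDB2 start, further downstream, had 3 matches to GGGCGG and none to CCAAT. The full XPC window held 1 match to GGGCGG, a motif found in 42.6% of all windows, and 1 match to AGAACA, the half-site of the androgen receptor, found in 12.4%. That half-site lies in an exon of the neighbouring LSM3 gene and is outside the run printed. Half-sites were also matched in 1 window each of ERCC6 and ERCC1. Neither of the other motifs was particular to DDB2 or XPC. CCAAT was also matched 3 times in the ERCC2 window and in 1 window of ERCC1. GGGCGG was also matched in windows of XPA, ERCC6, DDB1, ERCC5, ERCC2 and ERCC1. No window of the 10 genes matched the palindromic androgen response element, the NRF1 site, the E2F sites TTTGGCGC or TTTCGCGC, or the p53 half-site. These are letter matches only.

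DDB2 encodes the subunit of the UV-damaged DNA-binding complex that contacts the lesion, and it is a known p53 target. It is encoded on the plus strand, chromosome 11 from 47214465 to 47239217 in GRCh38, with 10 exons in its canonical GENCODE v44 transcript. With R1881 its lowest, median and highest libraries held 11.3, 11.9 and 13.9 CPM. With R1881 + enzalutamide replicates 1 to 5 held 17.4, 14.2, 15.7, 17.9 and 18.5 CPM. Every treated library was above every control library, although replicate 2 exceeded the highest control only narrowly. The mean rose from 12.4 ± 1.02 (n = 10) to 16.7 ± 1.75 CPM (n = 5), a log2 fold change of 0.41 with an SE of 0.069 (limma, adjusted p = 2.76e-05), the largest of the 10. Of all tested genes, 29.4% had a larger absolute change. DDB2 was counted with 175 to 471 reads per library.

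The control libraries themselves were not alike for DDB2. The mean was 13.2 ± 0.818 CPM in libraries 51 to 55 and 11.6 ± 0.217 CPM in libraries 71 to 75 (SD, n = 5 each), with no overlap, libraries 71 to 75 being lower. The share of all tested genes without overlap between these series is not given here. The separation is therefore not shown to be particular to DDB2. None of the 10 genes passed the test between these series, beside 3.29% of all tested genes, and for DDB2 the log2 difference was -0.18 (limma, adjusted p = 0.118), whereas after removal of each library's trend on GC content it was -0.22 and passed (limma, adjusted p = 0.0245). The rise with enzalutamide was 0.32 on the log2 scale against libraries 51 to 55 and 0.50 against libraries 71 to 75, so DDB2 was higher against either series.

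DDB1, the partner of DDB2, is also the adaptor of CUL4 ubiquitin ligases and is needed for far more than repair. It was the most abundant of the 10 genes and the only one that fell. It is encoded on the minus strand, chromosome 11 from 61299451 to 61342596 (27 exons in the canonical transcript). Its control libraries held 225 CPM at the lowest, 234 at the median and 246 at the highest. Its treated replicates 1 to 5 held 194, 195, 178, 181 and 182 CPM. The treated libraries lay wholly below the controls. The mean fell from 234 ± 6.36 (n = 10) to 186 ± 7.95 CPM (n = 5), a log2 fold change of -0.33 with an SE of 0.031 (limma, adjusted p = 8.24e-09), and the change was -0.33 against each R1881 series taken alone. DDB1 also had the narrowest relative spread of the 10 genes, with a coefficient of variation of 2.72% with R1881. The upstream window of DDB1 is not shown, since most of it lies in annotated exons of DDB1 and of TKFC.

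The opposite changes of the partners were compared within libraries, where the scaling of a library cancels. The log2 ratio of DDB2 to DDB1 averaged -4.24 ± 0.113 in the controls (n = 10) and -3.48 ± 0.189 in the treated libraries (n = 5). The control libraries spanned -4.40 to -4.07 and the treated ones -3.78 to -3.30, so the ranges did not meet. The difference of 0.76 was larger than in any other regrouping of the libraries (two-sided exact permutation test over 3003 regroupings, p = 0.000333, the smallest possible here, and 0.00133 after Benjamini-Hochberg adjustment over the 4 partner ratios computed). These 4 ratios were chosen after the values were seen. Since DDB2 and DDB1 each separated the treatments, in opposite directions, their ratio had to separate them too. The p-value of this ratio is therefore no evidence beyond the changes of the genes themselves.

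**Figure D2:**
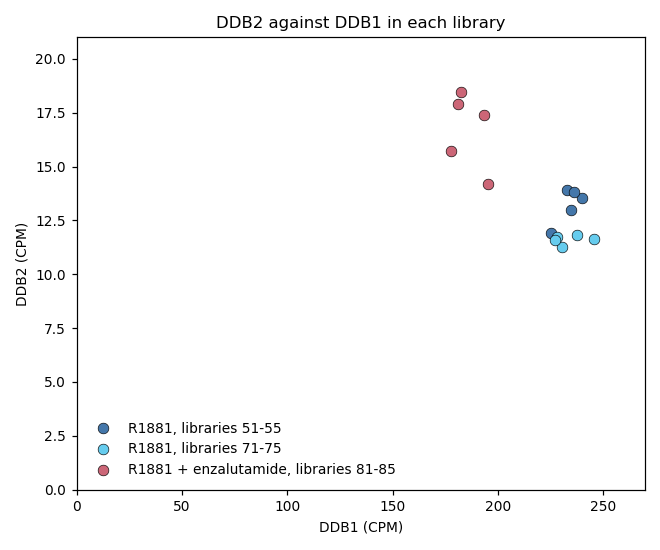
DDB2 against DDB1 (both CPM, linear axes from 0), 1 point per library, with R1881 libraries in blue and R1881 + enzalutamide libraries in red. The red points lie to the left of 200 CPM DDB1 and above 14 CPM DDB2, apart from all blue points.

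XPC encodes the genome-wide lesion sensor, which works in a complex with RAD23B and CETN2, and is also a known p53 target. It is encoded on the minus strand, chromosome 3 from 14145147 to 14178621 (16 exons). With R1881 the lowest, median and highest libraries held 48.8, 53.0 and 54.8 CPM. With R1881 + enzalutamide replicates 1 to 5 held 65.4, 64.7, 61.0, 68.8 and 68.9 CPM, all above the highest control. The mean rose by 25.2%, from 52.5 ± 1.95 (n = 10) to 65.8 ± 3.31 CPM (n = 5). The log2 fold change was 0.32 with an SE of 0.039 (limma, adjusted p = 3.55e-07), and it was 0.33 and 0.31 against libraries 51 to 55 and 71 to 75. The antisense gene XPC-AS1 shares 30% of the canonical exon bases of XPC. Since the use of strand in counting is stated neither in the methods nor in the labels, reads of the antisense RNA cannot be told apart from those of XPC.

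Among 13 further genes known as p53 targets, 10 were higher and 3 lower with enzalutamide, beside 29.8% and 32.7% of all tested genes. Their median log2 fold change was 0.55. CDKN1A (0.40) and MDM2 (0.38) were among those that rose, while TNFRSF10B (-1.11), AEN (-0.35) and RRM2B (-0.15) fell. The relation of these genes to DDB2 and XPC was not tested.

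ERCC6, the sensor of transcription-coupled repair, rose from 21.2 ± 1.03 (n = 10) to 24.7 ± 1.70 CPM (n = 5). It is encoded on the minus strand, chromosome 10 from 49454168 to 49539538 (21 exons). The controls spanned 20.1 to 22.9 CPM with a median of 20.97. The treated replicates 1 to 5 held 25.6, 24.1, 24.6, 26.9 and 22.4 CPM. Only replicate 5 fell within the control range. The log2 fold change was 0.22 with an SE of 0.050 (limma, adjusted p = 0.00068), and 0.22 against either R1881 series. The log2 ratio of XPC to ERCC6, the sensors of the genome-wide and the transcription-coupled route, differed by 0.10 between treatments (two-sided exact permutation test, p = 0.132, 0.176 after adjustment over the 4 ratios).

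Of the TFIIH helicases, ERCC3 passed the test and ERCC2 did not. ERCC3, which opens the DNA and also serves transcription initiation, is encoded on the minus strand, chromosome 2 from 127257290 to 127294166 (15 exons). It spanned 62.5 to 72.1 CPM in the controls (median 68.7), and the treated replicates 1 to 5 held 78.1, 72.2, 68.1, 73.2 and 71.5 CPM. The ranges overlapped, with 3 treated libraries above all controls. The mean rose from 67.6 ± 2.88 (n = 10) to 72.6 ± 3.60 CPM (n = 5), a log2 fold change of 0.10 (limma, adjusted p = 0.0283). This call was lost without R1881 + enzalutamide replicate 1 (0.08, limma, adjusted p = 0.115) or replicate 4 (0.10, adjusted p = 0.0577), and against libraries 71 to 75 alone (0.07, adjusted p = 0.178), while the change was 0.14 against libraries 51 to 55. It was also lost with a replicate block (0.08, limma, adjusted p = 0.167). The call of ERCC3 was kept in 12 of the 14 alternatives described below, among them edgeR (adjusted p = 0.00233) and DESeq2 (adjusted p = 0.0113).

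ERCC2, the helicase that probes the opened strand, is encoded on the minus strand, chromosome 19 from 45349837 to 45370918 (23 exons). The controls spanned 17.8 to 26.7 CPM (median 20.5), and the treated replicates held 17.2, 21.9, 19.7, 19.7 and 18.8 CPM, within that range except for replicate 1. The log2 fold change was -0.10 with an SE of 0.077 (95% interval -0.26 to 0.06, limma, adjusted p = 0.289). It was -0.02 against libraries 51 to 55 and -0.17 against libraries 71 to 75, without passing the test against either. The log2 ratio of ERCC2 to ERCC3 was lower with enzalutamide by 0.20 on average, from -1.70 ± 0.156 (SD, n = 10) to -1.90 ± 0.177 (SD, n = 5), with overlapping ranges (two-sided exact permutation test, p = 0.037, 0.074 after adjustment over the 4 ratios).

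XPA encodes a zinc-finger protein that verifies the lesion and positions the other factors. It is encoded on the minus strand, chromosome 9 from 97674909 to 97697340 (6 exons). The controls spanned 15.03 to 18.5 CPM (median 16.8), and the treated replicates 1 to 5 held 19.9, 16.3, 20.7, 19.9 and 18.6 CPM. Replicate 2 lay among the controls and the other 4 above all of them. The mean rose from 16.8 ± 1.03 (n = 10) to 19.1 ± 1.73 CPM (n = 5), a log2 fold change of 0.18 with an SE of 0.060 (limma, adjusted p = 0.0132). As for DDB2, the control series did not overlap for XPA, with 17.5 ± 0.630 CPM in libraries 51 to 55 and 16.0 ± 0.740 CPM in libraries 71 to 75 (SD, n = 5 each). The log2 difference between these series was -0.13 and did not pass the test (limma, adjusted p = 0.189). How often all tested genes separate these series is not given here. The call of XPA with enzalutamide was lost against libraries 51 to 55 alone (0.12, limma, adjusted p = 0.143) and without R1881 + enzalutamide replicate 3 (0.15, limma, adjusted p = 0.0521). Against libraries 71 to 75 the change of XPA was 0.24.

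ERCC1 and ERCC4 form the nuclease that cuts on the 5′ side of the lesion. ERCC1, the non-catalytic subunit, is encoded on the minus strand, chromosome 19 from 45407334 to 45478828 (10 exons) and overlaps POLR1G on the opposite strand over 47.1% of its canonical exon bases. Its controls spanned 28.0 to 36.01 CPM (median 31.3), and its treated replicates 1 to 5 held 36.1, 41.4, 38.2, 37.5 and 35.2 CPM. Only replicate 5 lay below the highest control. The mean rose from 31.7 ± 2.30 (n = 10) to 37.7 ± 2.36 CPM (n = 5), a log2 fold change of 0.25 with an SE of 0.054 (limma, adjusted p = 0.000451), and of 0.28 and 0.22 against libraries 51 to 55 and 71 to 75. Without known strand use, reads of POLR1G could be counted within this value, or reads of the shared bases left out of it. The same limit holds for ERCC2, which shares 13% of its canonical exon bases with KLC3 on the opposite strand. It also holds for ERCC4, which shares 13.5% with a long noncoding RNA on the opposite strand.

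ERCC4, the catalytic subunit, is encoded on the plus strand, chromosome 16 from 13920138 to 13952348 (11 exons). Its controls spanned 26.4 to 33.6 CPM (median 30.3), and its treated replicates held 32.8, 30.4, 32.3, 33.7 and 34.6 CPM, of which 2 exceeded all controls. The log2 fold change of 0.13 was just past the threshold (standard error 0.054, limma, adjusted p = 0.0461). It was lost against libraries 51 to 55 alone (0.09, limma, adjusted p = 0.131) and in 9 of the 15 fits with a library left out, those without R1881 replicates 3, 5, 6, 8 or 10 or R1881 + enzalutamide replicates 1, 3, 4 or 5 (limma, adjusted p = 0.0596 to 0.127). Against libraries 71 to 75 the change of ERCC4 was 0.16. Its call was also lost with a replicate block (0.10, limma, adjusted p = 0.21). The call of ERCC4 was kept in 12 of the 14 alternatives described below, among them edgeR (adjusted p = 0.00699) and DESeq2 (adjusted p = 0.0178). The log2 ratio of ERCC1 to ERCC4 differed by 0.12 between treatments, with overlapping ranges (two-sided exact permutation test, p = 0.235, the same after adjustment over the 4 ratios).

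ERCC5, the nuclease that cuts on the 3′ side, is encoded on the plus strand, chromosome 13 from 102845831 to 102875995 (15 exons). It had the fewest reads of the 10, between 128 and 233 per library. The controls spanned 7.52 to 9.13 CPM (median 8.42), and the treated replicates 1 to 5 held 10.2, 8.98, 9.64, 10.5 and 7.84 CPM. Replicates 1, 3 and 4 exceeded all controls, while replicates 2 and 5 lay among them. The log2 fold change of 0.16 (95% interval 0.01 to 0.31) did not pass the test after adjustment (limma, adjusted p = 0.0576). The change was 0.18 and 0.14 against libraries 51 to 55 and 71 to 75, without passing the test. It did pass with the count tests on the recovered reads (0.22, adjusted p = 0.015 from edgeR, and 0.18, adjusted p = 0.0424 from DESeq2), with TMM, median-ratio or equal-total scaling (limma, adjusted p = 0.0409, 0.0454 and 0.00428), with the GC trend removed (0.18, limma, adjusted p = 0.0221), and without R1881 replicate 2 (limma, adjusted p = 0.0451), R1881 replicate 9 (0.0495) or R1881 + enzalutamide replicate 5 (0.22, adjusted p = 0.0108). The readthrough gene BIVM-ERCC5 covers 91.7% of the canonical exon bases of ERCC5 on the same strand, and how reads shared by both were counted is stated neither in the methods nor in the labels, so the level of ERCC5 is uncertain.

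**Figure D3:**
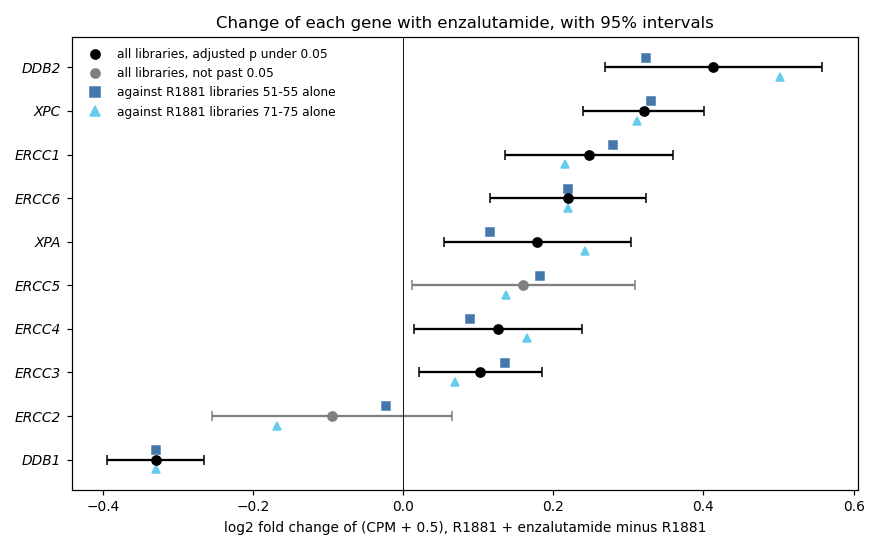
Log2 fold change of (CPM + 0.5), R1881 + enzalutamide minus R1881, with 95% intervals from limma over all libraries (circles, grey where the adjusted p was not under 0.05), and the same change against libraries 51 to 55 (squares) or 71 to 75 (triangles) alone. DDB2 is highest at 0.41 and DDB1 lowest at -0.33, and the symbols for the control series are farthest apart for DDB2.

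Levels were also compared between genes, as mean CPM with R1881 per kilobase of the canonical transcript. DDB1 was highest, with 55.1 ± 1.5, followed by ERCC3 with 24.9 ± 1.06, XPC with 14.4 ± 0.534, XPA with about 12 (SD 0.736), ERCC1 with 9.37 ± 0.681 and DDB2 with 6.84 ± 0.562 (SD, n = 10 for each). ERCC2 followed with 5.08 ± 0.616, ERCC4 with 4.44 ± 0.324, ERCC6 with 2.35 ± 0.114 and ERCC5 with 2.15 ± 0.151 CPM per kilobase (SD, n = 10 for each). The means of ERCC2 and ERCC4, and those of ERCC6 and ERCC5, differed by less than the sum of their SDs. The lesion-binding subunit DDB2 was thus far less abundant as RNA than its partner in both treatments, with 9.22 ± 0.964 against 43.8 ± 1.87 CPM per kilobase with R1881 + enzalutamide (SD, n = 5).

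The spread among libraries of the same treatment was not equal across the 10 genes and moved with base composition for some of them. The GC tendency of a library was taken as Spearman's rho between the deviations of its genes from the group mean and their GC content, over 14505 genes, which are not independent replicates. It ranged from -0.635 in R1881 replicate 10 to 0.741 in R1881 replicate 6. ERCC2, with the most GC-rich canonical transcript of the 10 (60%), had its highest value, 26.7 CPM, in R1881 replicate 6 and its lowest control value, 17.8 CPM, in R1881 replicate 10. ERCC4, with the lowest GC content (39.9%), had low control values of 26.6 CPM in R1881 replicate 6 and 26.4 CPM in R1881 replicate 5, whose GC tendency was 0.574. After removal of each library's trend on GC content, the SD within treatments on the log2 scale decreased from 0.152 to 0.053 for ERCC2, from 0.098 to 0.054 for ERCC1 and from 0.103 to 0.064 for XPA, while it was 0.125 and 0.148 for DDB2. The treatment differences then were -0.02 for ERCC2, 0.32 for ERCC1, 0.21 for XPA, 0.18 for ERCC5, 0.47 for DDB2, 0.36 for XPC and -0.29 for DDB1. For ERCC3, ERCC4 and ERCC6 they were 0.13, 0.16 and 0.26.

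**Figure D4:**
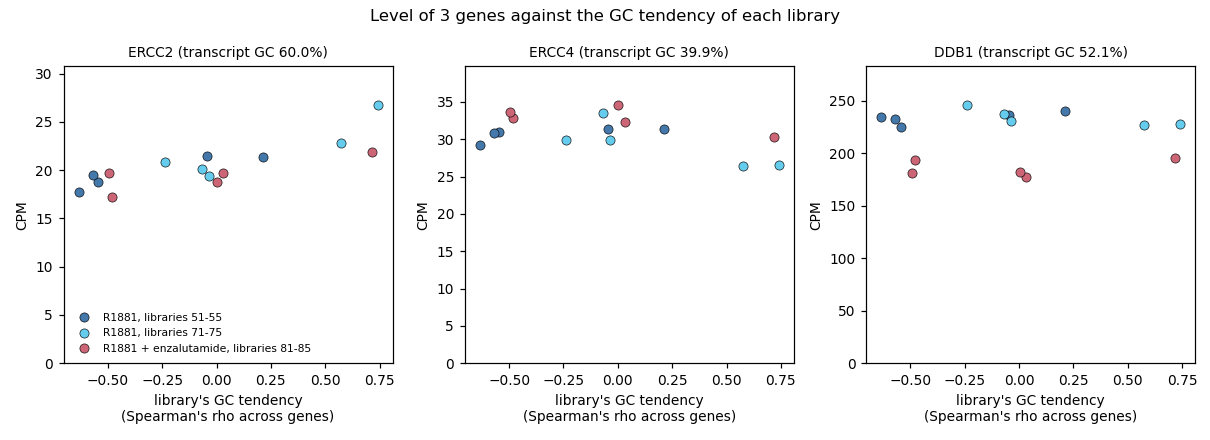
CPM of ERCC2, ERCC4 and DDB1 in each library (vertical axes from 0) against the GC tendency of the library, with R1881 libraries in blue and R1881 + enzalutamide libraries in red. ERCC2 is highest (26.7 CPM) and ERCC4 low (26.6 CPM) in the library with the largest GC tendency (0.741), and for DDB1 the treatments are apart at every GC tendency.

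The remaining genes of the pathway were examined with a list of 41, of which 40 had values. Here 24 were lower and 5 higher with enzalutamide, beside 32.7% and 29.8% of all tested genes. With equal library totals 19 were lower and 8 higher. The median log2 fold change was -0.20, whereas 7 of the 10 ERCC, XP and DDB genes rose and their median was 0.17. Of 18 genes for gap filling and ligation, 14 were lower and none higher, with a median log2 fold change of -0.38, while 4 did not pass the test. LIG1, the replicative DNA ligase, fell from 16.5 ± 1.51 (n = 10) to 9.15 ± 1.24 CPM (n = 5), a log2 fold change of -0.82 (limma, adjusted p = 1.34e-08). The change of POLE4, a small subunit of DNA polymerase epsilon, was the smallest among the lower genes of this step (-0.13, limma, adjusted p = 0.0354). RPA2 (-0.24) and RPA3 (-0.30), subunits of the protein that coats single-stranded DNA, were lower, and the third subunit did not pass the test.

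These enzymes also serve DNA replication. In the same libraries 41 of 43 S phase genes and 53 of 54 G2/M phase genes were lower, and 3 of the 18 gap filling genes are in the S phase list, while none of the 10 ERCC, XP and DDB genes is in either list. The part of the cell cycle in the results was not tested, and in bulk RNA fewer cells in a phase and less RNA per cell cannot be told apart.

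At the earlier steps the other genes moved both ways, as did all tested genes, of which 32.7% were lower and 29.8% higher. The counts below for transcription-coupled repair and for TFIIH lie near these shares. Among 6 partners in genome-wide recognition, 4 were lower and 1 higher. RBX1, the RING subunit of the ubiquitin ligase that DDB1 and DDB2 join, fell from 67.1 ± 2.76 (n = 10) to 49.6 ± 2.71 CPM (n = 5), a log2 fold change of -0.43 (limma, adjusted p = 6.21e-09). CUL4B, a scaffold of the same ligase, rose by 0.23 (limma, adjusted p = 0.000198). Among 6 partners in transcription-coupled repair, 2 were lower and 2 higher. USP7, a deubiquitinase recruited with UVSSA, fell by 0.46 on the log2 scale (limma, adjusted p = 2.11e-08), whereas UVSSA rose from 12.2 ± 0.916 (n = 10) to 15.8 ± 0.992 CPM (n = 5), without overlap between treatments (0.36, limma, adjusted p = 3.41e-05). Of 7 other TFIIH subunits with values, 2 were lower and 2 higher, with GTF2H3 lowest at -0.23 (limma, adjusted p = 0.00112) and CDK7, the kinase of TFIIH, highest at 0.21 (limma, adjusted p = 0.000763).

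**Figure D5:**
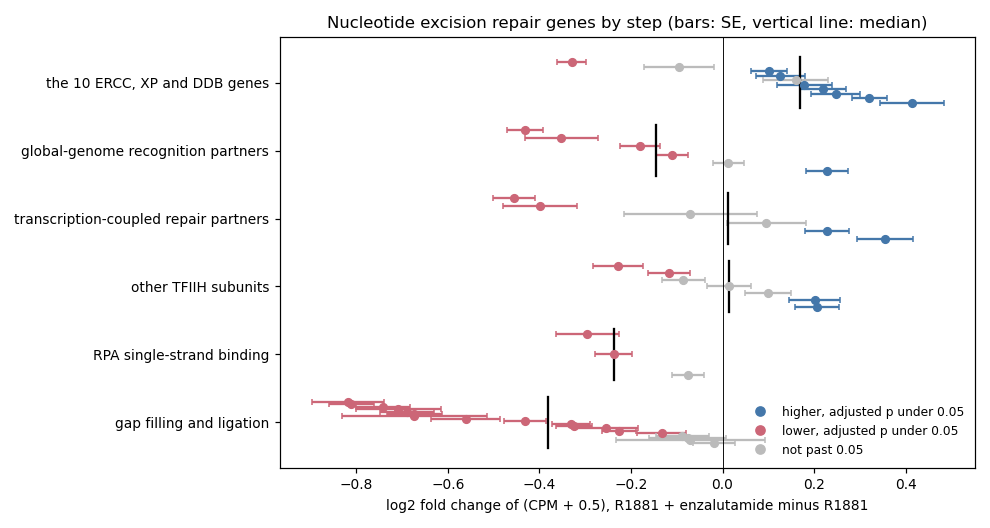
Log2 fold change of (CPM + 0.5) with its standard error for the 10 ERCC, XP and DDB genes and for 40 other genes of the pathway, by step (blue higher, red lower, grey not past an adjusted p of 0.05, vertical line the median of each row). The 10 genes have a median of 0.17 and the gap filling and ligation genes one of -0.38.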

How the data were processed

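RNA of LNCaP cells was sequenced as single-end reads after a TruSeq Stranded mRNA preparation. Alignment to GRCh38 was done by the authors with STAR and counting per gene with featureCounts, and the deposited values are a normalized signal for each gene, called CPM in the methods. Annotation, strand setting and scaling are stated neither there nor in the labels. The deposited signal summed to between 985580 and 1078567 per library. Dividing it by the value of a single read gave whole reads for 100% of values (tolerance 0.01 reads). In all 55 pairs of libraries with the same treatment, the counts differed beyond sampling noise (lowest chi-square over its degrees of freedom 1.63). No column was without a sample.

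Genes with a mean of at least 0.5 CPM were tested with limma 3.58.1 in R 4.3.3 on log2(CPM + 0.5), so that changes of low genes are understated, with a mean-variance trend, treatment as the only term and Benjamini-Hochberg adjustment over all tested genes (threshold 0.05). Partner ratios were tested by exact permutation. The alternatives were pseudocounts of 0.1 and 1, other filters and scalings, edgeR 4.0.16 and DESeq2 1.42.0 on recovered reads, a replicate block, removal of the GC trend (spline, 5 degrees of freedom), each R1881 series alone and each library left out. Positions and GC content are from GENCODE v44 (85% of genes matched by symbol), and S and G2/M lists from Seurat 5.3.0. On simulated reads for this comparison (17046 genes), 97% of genes changed by 1 and 36% of genes changed by 0.5 on the log2 scale were called, as were 0.0594% of unchanged genes. The simulated noise was taken from control counts not scaled for depth, and 100 genes were changed at each size, far fewer than in the data. These shares therefore do not give the power in the data. The genes and lists were chosen with earlier results of these data known. The partner ratios and the GC tendency of libraries were added after the values were seen. Named were the 10 genes, the lowest and highest called gene of each step, genes overlapping them and androgen-induced genes. LSM3, CDKN1A, MDM2, TNFRSF10B, AEN, RRM2B and the detected markers were named after their values were seen. Replicates that share a number did not deviate together (correlations -0.0678 to 0.0739), so the numbers do not pair libraries.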

Additional observations from a re-analysis of the deposited data

How the results depend on the processing

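DDB1, DDB2, XPC, ERCC1 and ERCC6 kept their direction and stayed past the threshold under all 14 alternatives and with each of the 15 libraries left out, while ERCC2 passed under none. ERCC3, ERCC4, ERCC5 and XPA moved across the threshold under some of them, without a change of sign. The number of genes that rose among the 10 was 5 with the replicate block, 5 against libraries 51 to 55 alone, 8 with edgeR and DESeq2, and 5 to 8 with a library left out, with 5 when R1881 + enzalutamide replicate 1, 3 or 4 was the one omitted. The number that fell stayed at 1. Under the replicate block ERCC3 (0.08, adjusted p = 0.167 from limma) and ERCC4 (0.10, adjusted p = 0.21 from limma) lost their call and ERCC5 did not pass (0.10, adjusted p = 0.345, and 0.11, adjusted p = 0.236 with the GC trend also removed), but the replicate numbers do not pair the libraries and no library correlated best with its own number. With equal library totals, 8 of the other genes of the pathway were higher in place of 5, and over all genes 6629 were higher and 4288 lower, in place of 5083 and 5577, as the median of all genes moved from -0.01 to 0.07. Between the R1881 series none of the 10 genes passed, and 1 did (DDB2) with the GC trend removed. With 5 treated libraries, changes near 0.5 on the log2 scale were often missed in simulated reads. Those reads held added noise from library depth and few changed genes, so they do not give the power in these data. The p-values measure the spread between these libraries, which may be technical.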
